A study of Mus musculus with 6 samples.

Results

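The genes described here are 10 genes of glycolysis, chosen by name from a table of 56748 genes counted in endothelial cells (ECs) sorted from mouse spinal cord. They are *Hk1*, *Hk2*, *Pfkfb3*, *Pfkl*, *Aldoa*, *Gapdh*, *Pgk1*, *Eno1*, *Pkm* and *Ldha*, and each was read from the row that carries its symbol. *Aldoa* occurs on a further row with 0 counts in all 6 libraries, and the row with counts was used. All 10 genes had counts in at least 1 library, and 9 of the 10 passed the filter on low counts and were tested. *Hk2* did not pass it.

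The study compared 3 control mice (Tardbpflox) with 3 TDP-43iΔEC mice (Cdh5(PAC)-CreERT2;Tardbpflox) at P16. Mice of both groups carried the floxed *Tardbp* gene, which encodes the RNA-binding protein TDP-43, and both received tamoxifen (1 mg/mL) from P5 to P7, so that the groups differ by the Cre transgene. The *Cdh5* promoter drives Cre in ECs throughout the body, and the deletion is therefore not limited to the spinal cord. Each mouse gave 1 RNA-Seq library, and the deposited counts summed to between 25704871 and 47270654 per library. Such totals put 3 counts at 0.0635 to 0.117 CPM, the unit of counts scaled to a common library total.

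Glycolysis turns glucose into pyruvate in the cytosol. Hexokinases trap glucose in the cell, phosphofructokinase sets the pace of the pathway, phosphoglycerate kinase and pyruvate kinase yield ATP, and lactate dehydrogenase converts pyruvate to lactate. ECs are known to draw much of their ATP from glycolysis, and *Pfkfb3*, which makes the activator of phosphofructokinase, is known for its role in vessel sprouting. Most of these enzymes exist as isozymes from separate genes, so the isozymes are described beside the 10 genes.

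The sorted libraries were checked first. Values per mouse are given as normalized counts, the deposited counts divided by a size factor per library. *Tardbp* had 1973, 2282 and 2069 normalized counts in the control group and 982, 599.9 and 433 in the TDP-43iΔEC group. The groups did not overlap, and the log2 fold change of -1.62 had an adjusted p of 0.287 in limma, above the threshold of 0.05, and passed it in 1 of 21 alternatives, DESeq2's Wald test (0.00188). Its row counts the whole gene, so transcripts without the floxed exon still count. All 10 EC marker genes were counted, with summed levels of 11315 to 15152 CPM per library. Of these, 9 had negative log2 fold changes (median of the 10 -0.20), and 3 were lower without overlap between the groups, against 7.93% of all genes. None passed the threshold, against 0.137% of all genes, and *Flt1* was nearest to it (log2 fold change -0.69, adjusted p = 0.0635 in limma). Mural cell markers summed to 430.3 to 1079 CPM, and were highest in TDP-43iΔEC mouse 2. Neuronal markers summed to 4.995 to 11.1 CPM in control mice and to 1.95 to 3.54 in TDP-43iΔEC mice, without overlap. Single neuronal genes went both ways. Of the 3 tested, 2 had negative log2 fold changes, and *Rbfox3* had a positive one. *Rbfox3* was at 0 to 0.045 CPM in control mice and 0.57 to 1.95 in TDP-43iΔEC mice. In control mouse 2, *Map2* alone gave 8.74 of the 9.40 CPM. Astrocyte markers summed to 23.1 to 27.4 CPM in control mice, 28.0 in TDP-43iΔEC mouse 1, 7.44 in mouse 2 and 0.506 in mouse 3. Fibroblast and microglial markers overlapped between the groups and reached at most 43.9 and 8.21 CPM, and the microglial and macrophage genes *Adgre1* and *Itgam* were at 0 in all 6. Oligodendrocyte markers lay between 288 and 546 CPM in control libraries, and at 503 in TDP-43iΔEC mouse 1, 59.5 in mouse 2 and 15.7 in mouse 3. The 5 of them that were tested had negative log2 fold changes (median -4.54), and 0 passed the threshold in limma, against 0.137% of all genes. Erythroid markers, the genes *Hba-a1*, *Hba-a2*, *Hbb-bs*, *Hbb-bt* and *Alas2*, summed to 6336 to 9759 CPM in control mice and to 2197 to 2909 in TDP-43iΔEC mice, without overlap. All 5 had negative log2 fold changes, and the 4 hemoglobin genes passed the threshold in limma (adjusted p from 0.0209 to 0.0269), where 0.107% of all genes fell. None of the 4 passed in edgeR, with EC marker scaling, with the GC content and length trend removed, without control mouse 1, without any single TDP-43iΔEC mouse or without control mouse 2 and TDP-43iΔEC mouse 1 (adjusted p from 0.0502 to 0.642). Without a filter on low counts, *Hbb-bt* alone passed. Conjugated antibodies to CD31, to CD45 and to erythroid cells are among the listed reagents. A sorting gate against the last would remove erythroid cells, but erythroid transcripts were still counted in all 6 libraries. The part of these other cells in the glycolysis counts was not tested. In sorted bulk samples, fewer cells of a type and less RNA per cell cannot be told apart.

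Levels of the 10 genes were first compared with each other, as CPM per kb of the annotated transcript and as means over the 6 libraries. *Gapdh*, glyceraldehyde-3-phosphate dehydrogenase, was highest at 509 ± 110.2 CPM per kb (SD, n = 6). *Eno1* followed at 469 ± 84.7, *Ldha* at 420 ± 118, *Pkm* at 369 ± 87.6 and *Aldoa* at 340.4 ± 114. Neighbours in this group of 5 changed places between libraries, and each stood above the next in only 3 to 4 of the 6. The top place differed by genotype. In control mice the mean of *Eno1* (509 CPM per kb) was above that of *Gapdh* (445). In TDP-43iΔEC mice the mean of *Gapdh* (573) was above that of *Eno1* (429). Each order held in every library of its genotype. The phosphoglycerate kinase gene *Pgk1* came next at 87.7 ± 15.6 CPM per kb, below *Aldoa* in all 6 libraries. *Pfkl* had 33.1 ± 14.04 and *Hk1* 11.3 ± 3.99 CPM per kb, and this order also held in all 6. *Pfkfb3* had 4.75 ± 3.36 CPM per kb and was below *Hk1* in 5 of the 6. *Hk2*, the hexokinase of muscle and fat, was last.

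**Figure D1:**
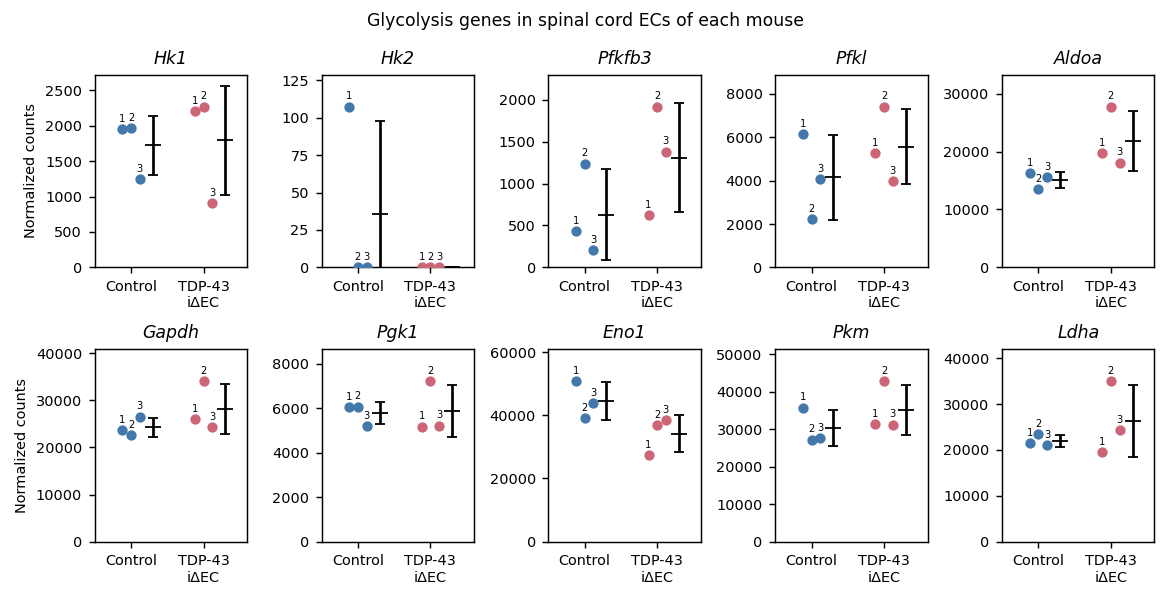
Normalized counts (deposited counts divided by DESeq2 size factors) of the 10 glycolysis genes in each library, with the mouse number beside each point and bars for mean ± SD (n = 3 mice per group). *Aldoa* was higher and *Eno1* lower in every TDP-43iΔEC mouse than in every control mouse, and TDP-43iΔEC mouse 2 gave the highest value for 8 of the 9 genes tested.

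The comparison of the genotypes asks whether these genes change with the endothelial deletion. In the limma test of 13107 genes, 0 of the 9 genes tested had an adjusted p under 0.05, where 0.137% of all genes tested did. That is 0 higher and 0 lower in TDP-43iΔEC mice, against 0.0305% and 0.107% of all genes. The adjusted p ranged from 0.471 for *Eno1* to 0.990 for *Hk1*. Without adjustment, 2 of the 9 had a p under 0.05, against 9.27% of all genes. Those were *Aldoa*, with a positive log2 fold change, and *Eno1*, with a negative one. In normalized counts, these were also the 2 of 9 whose groups did not overlap, with 1 higher in TDP-43iΔEC mice and 1 lower. Of all genes, read under another scaling (TMM), 15.3% did not overlap, with 7.4% higher and 7.93% lower. For 3 mice per group, the smallest p of a 2-sided exact permutation test is 0.1, which both genes reached. edgeR's quasi-likelihood test and DESeq2's Wald test also called 0 of the 9, each with 1 unadjusted p under 0.05. Over all genes, edgeR called 0 of 13107, with 848 unadjusted p values under 0.05. DESeq2 called 466 of 20019, with 1773 such p values. Log2 fold changes were positive for 7 of the 9 genes, against 49.3% of all genes, and their median was 0.16, against -0.02 for all genes tested. Without TDP-43iΔEC mouse 2 the median was 0.02.

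The summed level of the 10 genes was 4440, 3406 and 3792 CPM in control mice 1, 2 and 3. In TDP-43iΔEC mice 1, 2 and 3 it was 4024, 5804 and 4054 CPM. The groups overlapped, with means of 3879 ± 522 and 4628 ± 1019 CPM (SD, n = 3 mice each), and the difference of 748 CPM was 159.9 CPM without TDP-43iΔEC mouse 2. The size of this difference depended on the scaling. In normalized counts the means were 148518 ± 12886 and 160209 ± 30935, also with overlap. With ribosomal RNA, hemoglobin and mitochondrially encoded genes left out of the total, they were 4873 ± 503 and 5488 ± 1068 CPM, again with overlap.

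Hexokinase, which phosphorylates glucose at entry, was counted almost wholly as *Hk1*. *Hk1* (ENSMUSG00000037012.19, chromosome 10 of GRCm39, 62104621 to 62215687, minus strand, 18 exons) had 1950.0, 1971 and 1246 normalized counts in mice 1, 2 and 3 of the control group and 2207, 2269 and 905 in those of the TDP-43iΔEC group. TDP-43iΔEC mouse 3 was lowest and the other two of its group were highest, so the groups overlapped fully. The log2 fold change was 0.03 ± 0.40 (SE, 95% interval -0.88 to 0.95, adjusted p = 0.990 in limma), and an interval this wide leaves changes in either direction possible. *Hk2* (ENSMUSG00000000628.11, chromosome 6, 82699740 to 82751469, 18 exons) had 129 deposited counts in control mouse 1 and 0 in the other 5 libraries. By counting error alone, a 0 still allows 3 counts, or at most 4.26 normalized counts. PCR copies count as reads, so this does not limit the level of the transcript. The hexokinase genes *Hk3* and *Hkdc1* were at 0 in all 6 libraries.

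At the phosphofructokinase step, the groups overlapped for *Pfkl* and *Pfkm* and not for *Pfkp*. *Pfkl*, the liver-type isozyme (ENSMUSG00000020277.11, chromosome 10, 77818084 to 77845922, minus strand, 22 exons), had 6159, 2236 and 4074 normalized counts in the control group and 5284, 7414 and 3993 in the TDP-43iΔEC group. These values overlapped, and the log2 fold change was 0.46 ± 0.38 (SE, 95% interval -0.41 to 1.33, adjusted p = 0.704 in limma). It was 0.06 without control mouse 2 and 0.81 without control mouse 1. Exons of *Cfap410* on the opposite strand overlap 24.2% of its transcript, and that row held 356 to 1379 normalized counts. The muscle-type isozyme *Pfkm* had 1639 ± 239 and 1366 ± 349 normalized counts (log2 fold change -0.40 ± 0.34 SE, limma adjusted p = 0.710). Leaving out single mice moved that fold change between -0.54 and -0.10.

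The platelet-type isozyme *Pfkp* had 2556, 2232 and 2905 normalized counts in the control group and 6151, 5148 and 5671 in the TDP-43iΔEC group. The lowest TDP-43iΔEC value was above the highest control value, and group means were 2565 ± 336 and 5657 ± 502 (SD, n = 3). The log2 fold change of 1.12 ± 0.23 (SE, 95% interval 0.60 to 1.63) had an unadjusted p of 0.000874 and an adjusted p of 0.196 in limma, so that it did not pass the threshold there. It passed in DESeq2's Wald test, with an adjusted p of 3.3e-07, and in none of the other 20 alternatives, where the adjusted p reached 0.985. Over all 21 the log2 fold change lay between 0.92 and 1.35. Exons of *Pitrm1* on the opposite strand overlap 42.5% of the *Pfkp* transcript, and the counting did not use strand. The *Pitrm1* row itself was at a log2 fold change of 0.00 (adjusted p = 0.999 in limma). In CPM per kb, *Pfkp* made up 30.7% ± 6.89 of the 3 isozymes in control mice and 44.2% ± 7.73 in TDP-43iΔEC mice, and control mouse 2 was above TDP-43iΔEC mouse 2. The share of *Pfkm* was 18.5%, 25.2% and 19.2% in control mice and 8.16%, 11.4% and 14.8% in TDP-43iΔEC mice, without overlap, and was given no test. The share of *Pfkl* was 48.3% ± 10.0 and 44.4% ± 8.58, and these shares differed by less than their spread (p = 0.7, 2-sided exact permutation test).

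**Figure D2:**
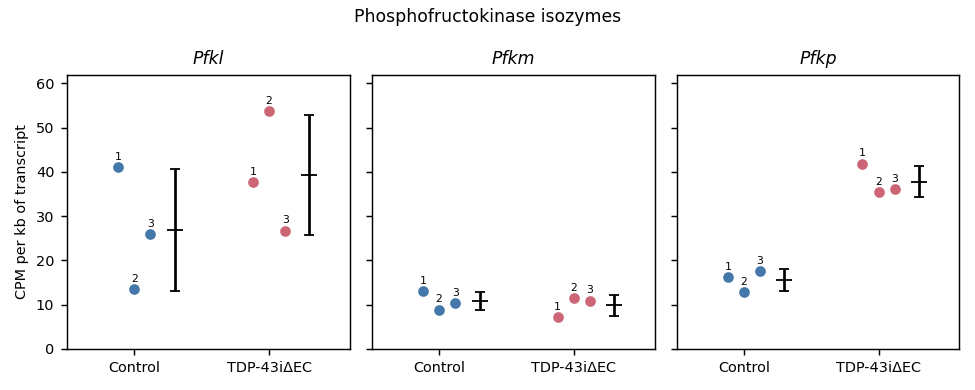
Level of the phosphofructokinase genes *Pfkl*, *Pfkm* and *Pfkp* in each library, in CPM per kb of annotated transcript, with the mouse number beside each point and bars for mean ± SD (n = 3 mice per group). The values of *Pfkl* and *Pfkm* overlapped between the groups, while those of *Pfkp* did not.

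*Pfkfb3* makes fructose bisphosphate that activates phosphofructokinase, and it had the largest fold change of the 9 genes tested and the widest error. It lies on chromosome 2 (ENSMUSG00000026773.20, 11476244 to 11558888, minus strand, 16 exons). Its normalized counts were 428, 1238 and 209 in control mice and 624, 1916 and 1381 in TDP-43iΔEC mice. Control mouse 2 exceeded TDP-43iΔEC mouse 1, so the groups overlapped. The log2 fold change was 1.15 ± 0.71 (SE, 95% interval -0.47 to 2.76, adjusted p = 0.617 in limma), and leaving out single mice moved it between 0.54 and 1.80. Of the related genes, *Pfkfb2* had 206, 0 and 4.06 normalized counts in the control group and 121, 112 and 202 in the TDP-43iΔEC group, and *Pfkfb1* and *Pfkfb4* were at 112 or less in every library. *Pfkfb3* provided 81.4% ± 29.3 of the CPM per kb of these 4 genes in control mice and 72.2% ± 18.9 in TDP-43iΔEC mice (2-sided exact permutation test, p = 0.6).

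*Aldoa* encodes the aldolase that splits the six-carbon sugar, and *Eno1* the enolase of the penultimate step. In normalized counts, both lay outside the range of the other group, in opposite directions. In CPM this held for *Aldoa* and not for *Eno1*, for which TDP-43iΔEC mice 2 (1094 CPM) and 3 (1052 CPM) lay above control mouse 2 (969 CPM). Their upstream sequences are shown with that of *Ldha* because hypoxia-inducible factor, a known activator of glycolysis genes, binds cores such as ACGTG. This form alone was searched, on both strands of the 250 bases before the start of the canonical transcript of each gene (GENCODE M39 on GRCm39). It was present for *Hk2*, *Aldoa*, *Pgk1* and *Ldha*, or 4 of the 10 genes, against 17.0% of 21770 protein-coding genes. Capitals mark each match, and CACGTG, which reads the same on both strands, holds overlapping matches. *Aldoa* (chr7:126398427-126398676, minus strand) has 1 match, and *Ldha* (chr7:46495013-46495262, plus strand) has 3 separate stretches, of which 2 are CACGTG. *Eno1* (chr4:150320893-150321142, plus strand) has no match of ACGTG in this window. The related form GCGTG was not searched, and the *Eno1* and *Ldha* sequences shown both hold it.
*Aldoa*: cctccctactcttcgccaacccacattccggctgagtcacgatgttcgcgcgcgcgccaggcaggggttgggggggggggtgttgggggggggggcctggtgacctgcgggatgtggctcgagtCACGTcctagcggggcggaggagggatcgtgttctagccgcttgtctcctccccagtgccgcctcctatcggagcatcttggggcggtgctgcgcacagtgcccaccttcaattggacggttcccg
*Eno1*: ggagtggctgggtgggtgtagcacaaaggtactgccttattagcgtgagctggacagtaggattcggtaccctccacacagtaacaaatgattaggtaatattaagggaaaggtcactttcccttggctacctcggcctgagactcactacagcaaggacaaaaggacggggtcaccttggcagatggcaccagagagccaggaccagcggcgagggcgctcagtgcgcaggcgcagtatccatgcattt
*Ldha*: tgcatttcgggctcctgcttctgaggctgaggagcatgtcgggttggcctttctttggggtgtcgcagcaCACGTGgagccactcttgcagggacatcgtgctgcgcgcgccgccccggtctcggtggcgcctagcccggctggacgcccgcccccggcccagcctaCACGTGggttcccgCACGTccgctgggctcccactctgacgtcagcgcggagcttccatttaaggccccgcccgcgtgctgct
A match is a string of letters and says nothing about binding in these cells.

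*Aldoa* (ENSMUSG00000030695.17, chromosome 7, 126393822 to 126399923, minus strand, 9 exons) had 16276, 13568 and 15604 normalized counts in the control libraries. It had 19721, 27758 and 18100.5 in TDP-43iΔEC mice. Every TDP-43iΔEC value was above every control value, with mouse 2 well above the rest, and group means were 15149 ± 1410.3 and 21859.8 ± 5172 (SD, n = 3). The log2 fold change was 0.47 ± 0.19 (SE, 95% interval 0.04 to 0.89), with an unadjusted p of 0.0355 and an adjusted p of 0.511 in limma. A gene model on the same strand overlaps 86.1% of its transcript, and that model had 0 counts in all 6 libraries. Over the alternatives, its limma, edgeR and DESeq2 adjusted p ranged from 0.228 to 0.985. Without TDP-43iΔEC mouse 2 the log2 fold change was 0.29. *Aldoc*, the brain-type aldolase, was low and variable, at 394 ± 342 and 104 ± 134 normalized counts. *Aldoa* held 98.7% ± 1.14 and 99.7% ± 0.401 of the CPM per kb of *Aldoa* and *Aldoc* together.

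*Eno1* (ENSMUSG00000063524.14, chromosome 4, 150321073 to 150337027, plus strand, 12 exons) had 50870.0, 39108 and 43752 normalized counts in the control libraries. It had 27405, 36842 and 38361 in TDP-43iΔEC mice. The highest TDP-43iΔEC value was just below the lowest control value, and group means were 44577 ± 5924 and 34203 ± 5936 (SD, n = 3). In limma, *Eno1* had a log2 fold change of -0.46 ± 0.17 (SE, 95% interval -0.84 to -0.08), with an unadjusted p of 0.0237 and an adjusted p of 0.471. It was -0.28 without TDP-43iΔEC mouse 1. It was negative under all 21 alternatives, from -0.57 to -0.23, and smallest when libraries were scaled to the EC marker genes (-0.23) or quantile normalized (-0.24). Scaling to EC markers moved the median of all genes by 0.23 on the log2 scale, and relative to that median *Eno1* was at -0.44, against -0.45 in the reported fit. Quantile normalization moved that median by 0.0051, and relative to it *Eno1* was at -0.23. *Eno1b* and the pseudogene *Gm4735* are near-identical copies of *Eno1*, and together they took 1.90% to 3.15% of the counts of all 3. With these counts added, the log2 fold change of *Eno1* was -0.47. *Eno1b* alone, at 559 ± 72.7 and 342 ± 95.6 normalized counts, had a log2 fold change of -0.82 ± 0.58 (SE, limma adjusted p = 0.657), a value made uncertain by the shared sequence. The erythroid markers given above differed between the groups in the same direction as *Eno1*, and their part in its difference was not tested. Erythroid transcripts were counted in every library, although an antibody to erythroid cells is among the listed reagents.

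*Eno3*, the muscle-type enolase, had 119.8, 835 and 399 normalized counts in the control group and 0 in all 3 TDP-43iΔEC libraries. Against a floor of 3 counts per library, its counts were at least 134-fold lower in TDP-43iΔEC mice, or at least 77.0-fold without control mouse 2. This bound covers counting error only, because PCR copies count as reads, and it does not limit the level of the transcript. Its adjusted p was 0.271 in limma, and it passed the threshold in DESeq2's Wald test (1.7e-08) and in limma without a filter on low counts (0.0111). Over all alternatives the adjusted p reached 0.985. An antisense gene overlaps 15.9% of its transcript. The neuronal enolase *Eno2* had 195 normalized counts in TDP-43iΔEC mouse 1, 19.5 in control mouse 3 and 0 elsewhere.

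The weights of *Aldoa* and *Eno1* within the glycolysis counts do not depend on how libraries are scaled against each other. Of the summed deposited counts of the 10 genes, *Eno1* took 29.9% ± 1.42 in control mice and 21.6% ± 3.81 in TDP-43iΔEC mice (SD, n = 3 mice each). *Aldoa* took 10.2% ± 0.461 and 13.6% ± 1.18. Neither share overlapped between the groups. The log2 ratio of *Aldoa* to *Eno1* counts was -1.64, -1.53 and -1.49 in control mice and -0.47, -0.41 and -1.08 in TDP-43iΔEC mice, so the TDP-43iΔEC libraries lay closer to equal counts, and mouse 3 least so. The shares of *Gapdh*, *Pkm* and *Ldha* overlapped. Other log2 ratios also did not overlap between the groups. That of *Gapdh* to *Eno1* was -1.10 to -0.72 in control mice and -0.66 to -0.08 in TDP-43iΔEC mice. That of *Pkm* to *Eno1* was -0.66 to -0.51 and -0.30 to 0.22, and that of *Aldoa* to *Gapdh* -0.76 to -0.54 and -0.43 to -0.30. The pair of *Aldoa* and *Eno1* was chosen after its values were seen, and these ratios were given no test.

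**Figure D3:**
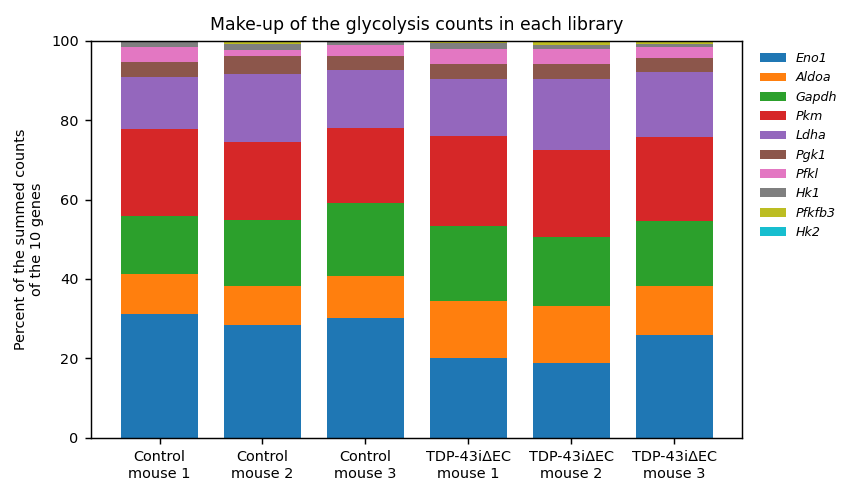
Share of each gene in the summed deposited counts of the 10 glycolysis genes, in percent, with 1 bar per library. *Eno1*, at the bottom of each bar, took a smaller share in each TDP-43iΔEC library than in any control library, and *Aldoa*, above it, a larger one.

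Between aldolase and enolase, the values of *Gapdh* and *Pgk1* overlapped. *Gapdh* (ENSMUSG00000057666.19, chromosome 6, 125135289 to 125143518, minus strand, 7 exons), a common reference gene, had 23656, 22531 and 26506 normalized counts in the control group and 25991, 34075 and 24329 in the TDP-43iΔEC group. Apart from the high value of TDP-43iΔEC mouse 2, the groups were intermixed, and the log2 fold change was 0.16 ± 0.16 (SE, 95% interval -0.20 to 0.52, adjusted p = 0.757 in limma), or 0.025 without that mouse. Exons of *Iffo1* on the opposite strand overlap 81.5% of the *Gapdh* transcript, but the *Iffo1* row held at most 714 normalized counts in any library. The 48 near-identical copies of *Gapdh* took 1.17% to 1.63% of the counts of *Gapdh* and its copies.

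*Pgk1* (ENSMUSG00000062070.13, chromosome X, 105230706 to 105247305, plus strand, 11 exons) had 6035, 6073 and 5208 normalized counts in the control group and 5174, 7225 and 5222 in the TDP-43iΔEC group. The values were intermixed, with a log2 fold change of -0.04 ± 0.21 (SE, 95% interval -0.51 to 0.43, adjusted p = 0.971 in limma) whose sign turned positive under DESeq2, quality weights and each other scaling. TDP-43iΔEC mouse 1 was the only library with counts of the Y-linked gene *Ddx3y* (5627 normalized counts) and the only one with none of *Xist*. By these genes it was male and the other 5 were female, so sex was not balanced between the groups. The part of sex in the differences between the groups was not tested. The *Pgk1* level of TDP-43iΔEC mouse 1 was the lowest of the 6 in normalized counts, and in CPM it lay within the range of the other 5.

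**Figure D4:**
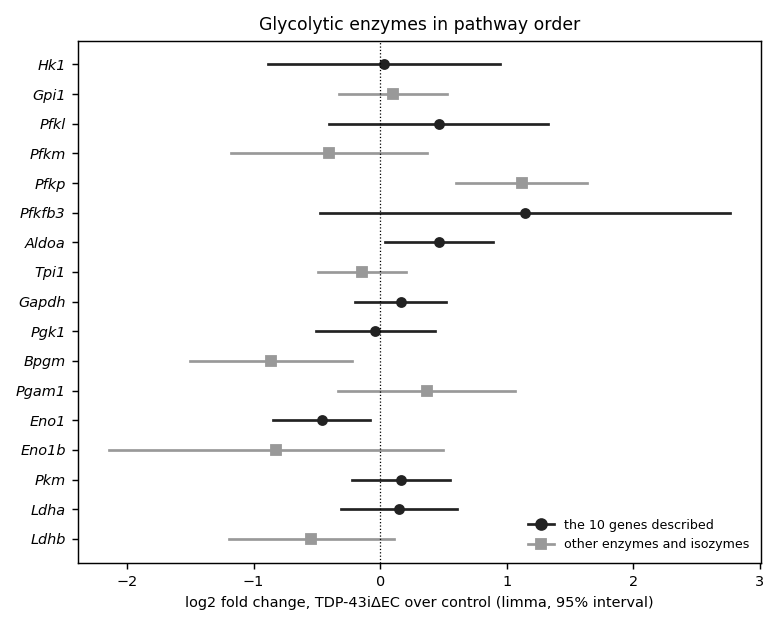
Log2 fold changes of TDP-43iΔEC over control mice from limma with 95% intervals, in the order of the pathway, with the 9 genes tested in black circles and 8 other enzymes and isozymes in grey squares. Among those drawn, the intervals of *Aldoa* and *Pfkp* lie above 0 and those of *Eno1* and *Bpgm* below it, and none of these genes passed the threshold after adjustment.

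At the end of the pathway, *Pkm* encodes pyruvate kinase (ENSMUSG00000032294.18, chromosome 9, 59563364 to 59586663, plus strand, 11 exons). It had 35755, 27239 and 27726 normalized counts in the control group and 31370.1, 42889 and 31226 in the TDP-43iΔEC group. Control mouse 1 was above 2 of the TDP-43iΔEC mice, and the log2 fold change was 0.17 ± 0.17 (SE, 95% interval -0.22 to 0.56, adjusted p = 0.772 in limma), or 0.021 without TDP-43iΔEC mouse 2. Gene counts do not separate its splice forms, and an antisense gene overlaps 31.6% of its transcript. *Pklr*, the pyruvate kinase gene of liver and red blood cells, was at 0 in all 6 libraries.

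*Ldha* (ENSMUSG00000063229.16, chromosome 7, 46490899 to 46505061, plus strand, 8 exons) had 21426, 23481 and 21121 normalized counts in the control group and 19553, 35017 and 24374 in the TDP-43iΔEC group. The control values were close together, and the TDP-43iΔEC values spread on both sides of them. Its log2 fold change was 0.15 ± 0.20 (SE, 95% interval -0.31 to 0.61, adjusted p = 0.830 in limma), and without TDP-43iΔEC mouse 2 it was -0.08. An antisense gene overlaps 29.4% of its transcript. *Ldhb*, the lactate dehydrogenase subunit known from heart, had 2608, 3017 and 2891 normalized counts in the control group and 1495, 2440.0 and 2525 in the TDP-43iΔEC group. These groups did not overlap, with a log2 fold change of -0.54 ± 0.29 (SE, limma adjusted p = 0.584), or -0.24 without TDP-43iΔEC mouse 1. In CPM they overlapped, as TDP-43iΔEC mouse 2 (72.5) lay above control mouse 1 (71.2). In CPM per kb, *Ldha* made up 88.2% ± 0.612 of *Ldha* and *Ldhb* in control mice and 92.1% ± 1.57 in TDP-43iΔEC mice (SD, n = 3 mice each). The share was higher in all 3 TDP-43iΔEC mice, and the p of 0.1 was the smallest that the 2-sided exact permutation test allows, or 0.5 after Benjamini-Hochberg adjustment over the 5 isozyme shares tested.

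Of 11 further genes of glycolysis and its side branches, 10 were tested and 0 passed the threshold in limma, against 0.137% of all genes, with a median log2 fold change of -0.10. The glucose phosphate isomerase gene *Gpi1* had 19381 ± 3517 and 21284 ± 3834 normalized counts, and the triose phosphate isomerase gene *Tpi1* had 14470.4 ± 458 and 13482 ± 1726. The phosphoglycerate mutase gene *Pgam1* had 3368 ± 699.6 and 4493 ± 1555, and the phosphoglucomutase genes *Pgm1* and *Pgm2* were both at -0.67 on the log2 scale, with standard errors of 0.66 and 0.47. *Bpgm*, which makes the bisphosphoglycerate that binds hemoglobin in red blood cells, had the lowest p of this list. Its normalized counts were 3613, 3075 and 4591 in control mice and 2359, 1957 and 1882 in TDP-43iΔEC mice, without overlap. The log2 fold change was -0.86 ± 0.28 (SE, unadjusted p = 0.0139, adjusted p = 0.420 in limma), and it passed the threshold in DESeq2's Wald test (0.0194) and in no other of the 21 alternatives. Markers of erythroid cells were lower in the same libraries, and their part in this was not tested.

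Glucose enters and lactate leaves ECs through transporters of the membrane. The glucose transporter gene *Slc2a1* had 139031 ± 42073 and 133855 ± 19855 normalized counts (log2 fold change -0.04, limma adjusted p = 0.964). The monocarboxylate transporter gene *Slc16a1* had 127392 ± 16148 and 78576 ± 23274 without overlap (log2 fold change -0.77 ± 0.18 SE, limma adjusted p = 0.262). In CPM its groups overlapped, as TDP-43iΔEC mouse 2 (3110) lay above control mouse 3 (2871). *Bsg*, which encodes basigin, the chaperone of that transporter, fell with a log2 fold change of -0.78 ± 0.07 (SE, limma adjusted p = 0.0119). *Bsg* passed the threshold in 12 of 21 alternatives and not with edgeR (adjusted p 0.299), library size only (0.109), quantile normalization (0.144), EC marker scaling (0.117), no filter (0.946) or the GC content and length trend removed (0.985). It also did not pass without TDP-43iΔEC mouse 1 (0.176), without TDP-43iΔEC mouse 3 (0.0714), or without control mouse 2 and TDP-43iΔEC mouse 1 (0.313). *Slc2a3* and *Slc16a3* were at 217 normalized counts or less in every library.

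Pyruvate that is not turned into lactate enters mitochondria. Of 14 genes of pyruvate import, pyruvate dehydrogenase and its regulators, all were tested and 0 passed the threshold in limma, against 0.137% of all genes, while 3 had an unadjusted p under 0.05, against 9.27%. These 3 were named after their values were seen. *Pdha1*, a subunit of pyruvate dehydrogenase, had 2834 ± 324 and 5021 ± 1643 normalized counts (log2 fold change 0.81 ± 0.29 SE, limma adjusted p = 0.471). Leaving out single mice moved its log2 fold change between 0.51 and 1.03. The pyruvate carrier gene *Mpc1* had 5897 ± 662 and 4223 ± 650.3 (log2 fold change -0.53 ± 0.21 SE, limma adjusted p = 0.511). The pyruvate carboxylase gene *Pcx* had 4030.4 ± 896 and 1823 ± 1063 (log2 fold change -1.48 ± 0.43 SE, limma adjusted p = 0.360), and -0.84 without TDP-43iΔEC mouse 1. For each of the 3, all TDP-43iΔEC normalized counts were on the same side of all control ones. Over the list of 14, 1 gene was higher and 3 were lower without overlap, against 7.4% and 7.93% of all genes. In CPM the groups overlapped for *Pcx*, as TDP-43iΔEC mouse 2 (87.1) lay above control mouse 2 (84.7). Antisense genes overlap 21.1% of the *Pdha1* transcript and 24.5% of that of *Mpc1*. The largest fitted changes of the list belonged to *Dlat*, which had 0 counts in control mouse 2 alone, and to *Pdp2*, with limma adjusted p of 0.612 and 0.749.

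Glycolysis genes are known targets of hypoxia-inducible factors, so 22 genes of that response were listed. Of the 19 tested, 1 rose, 0 fell and 18 did not pass the threshold in limma, where 0.0305% of all genes rose and 0.107% fell, with a median log2 fold change of -0.09. The gene that rose was *Adm*, which encodes adrenomedullin, from 3697 ± 401 to 12051 ± 1779.8 normalized counts (log2 fold change 1.66 ± 0.21 SE, limma adjusted p = 0.0269), although an antisense gene overlaps 20.8% of its transcript. *Adm* passed the threshold in 11 of 21 alternatives and not with edgeR (adjusted p 0.105), EC marker scaling (0.0553), the GC content and length trend removed (0.985), any single mouse left out (0.0637 to 0.193) or control mouse 2 and TDP-43iΔEC mouse 1 left out (0.255). *Hif1a* had 5229 ± 1299 and 6021 ± 1945 normalized counts (log2 fold change 0.10 ± 0.27 SE, limma adjusted p = 0.930). *Epas1*, the hypoxia-inducible factor gene that marks ECs, had 43435 ± 4447 and 33757 ± 1584 (log2 fold change -0.39 ± 0.12 SE, limma adjusted p = 0.391). The mitophagy gene *Bnip3l*, named after its values were seen, had 17571 ± 185 and 11946 ± 984 without overlap (log2 fold change -0.60 ± 0.14 SE, limma adjusted p = 0.271), and passed in DESeq2 alone of the 21 alternatives (0.000146). *Vhl* and *P4ha1* had the largest fitted changes of the list, and both had 0 counts in control mouse 2 alone. *Vegfa* had counts in TDP-43iΔEC mouse 3 alone, where it had 11.4 normalized counts.

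**Figure D5:**
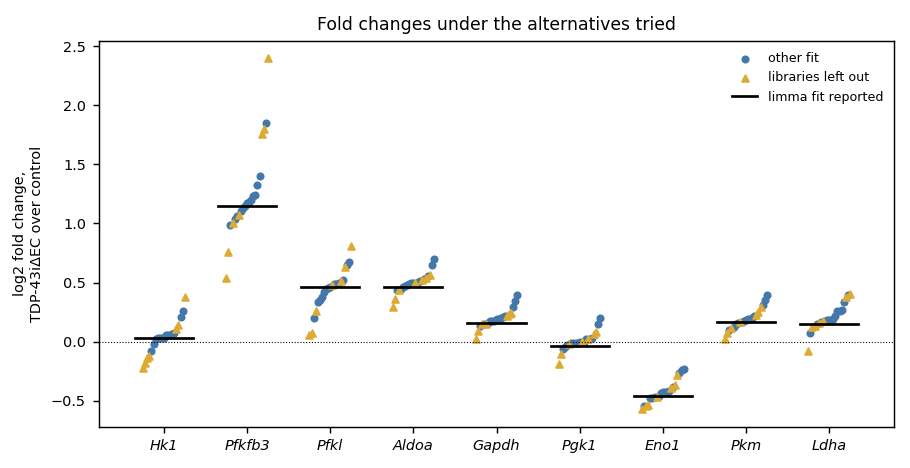
Log2 fold changes of the 9 glycolysis genes tested under each of the 21 alternatives, with the reported limma fit as a line, fits that leave out libraries as triangles and other fits as circles. *Pfkfb3*, *Pfkl*, *Aldoa*, *Gapdh* and *Pkm* stayed above 0 and *Eno1* below it in all 21, whereas *Hk1*, *Pgk1* and *Ldha* had values on both sides of 0.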

How the data were processed

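RNA-Seq was performed on ECs sorted from spinal cords of 6 mice at P16. The authors prepared libraries by SMARTseq2, mapped reads to GRCm39 with STAR 2.7.8a, and quantified GENCODE M30 genes with RSEM 1.3.0 at default options, which do not use strand. The deposited expected counts are whole numbers for 56748 genes, without scaling, and 0 sample columns lacked a sample. PCR copies count as reads, since no molecular identifiers were used as far as the methods say. The 10 genes and the lists beside them were chosen with earlier results of these data known.

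The contrast was fitted with limma 3.58.1 (voom, empirical Bayes) in R 4.3.3 after TMM scaling and filterByExpr of edgeR 4.0.16, with Benjamini-Hochberg adjustment over 13107 genes and a threshold of 0.05. The 21 alternatives covered edgeR's quasi-likelihood test, DESeq2 1.42.0, other scalings and filters, the GC content and length trend, a replicate block and leaving out mice. Normalized counts used DESeq2 size factors. Overlap between the groups was read on normalized counts for the listed genes and on TMM-scaled values for the shares of all genes. Positions, transcript lengths and overlaps came from GENCODE M39, which matched 98.7% of identifiers. Near-identical copies were found with blastn 2.17.0 (alignments of at least 51 bp at 97% identity over at least 50% of the copy). Genes named were the 10, their isozymes with a mean of at least 100 normalized counts, from each other list those past the threshold and the 2 with the largest change at that level, the transporters, *Tardbp*, *Hif1a* and *Epas1*. Other genes named were chosen after their values were seen. On simulated counts with 200 of 13107 genes changed, limma called 15 genes, all changed by a log2 fold change of 2 in size, edgeR 12, and DESeq2 146, of which 52 were changed. With 0 genes changed, limma and edgeR called 0 genes and DESeq2 83. Each mouse gave 1 library, as the labels state 3 animals per group.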

Additional observations from a re-analysis of the deposited data

How the results depend on the processing

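In all 21 alternatives, 0 of the 9 genes tested passed the threshold of 0.05, and the lowest adjusted p of any of them was 0.228, for *Aldoa* in DESeq2's Wald test. The count over all genes was 18 in limma and depended on the processing. It was 0 with edgeR's quasi-likelihood test (848 genes with an unadjusted p under 0.05), 466 with DESeq2, 10 with scaling by library size only, 40 with quantile normalization, 0 with scaling to the EC markers (1260 unadjusted), 76 without a filter, 39 with at least 10 counts in every library and 0 with the trend on GC content and length removed (448 unadjusted). With each mouse left out it ranged from 0 to 13, and it was 0 without TDP-43iΔEC mouse 1. Without control mouse 2 and TDP-43iΔEC mouse 1 together, an alternative chosen after seeing the data, it was 0 (1026 unadjusted). The cause was not tested. The median log2 fold change of the 9 genes was 0.39 with scaling to the EC markers, which moved the median of all genes by 0.23. The signs of some fitted changes turned. For *Hk1*, the log2 fold change was -0.02 with counts drawn down and -0.078 with the GC content and length trend removed, -0.14 without control mouse 2 and TDP-43iΔEC mouse 1, and -0.22 to 0.38 with each mouse left out. For *Pgk1* it was 0.025 with DESeq2, 0.030 with quality weights, 0.0012 with DESeq2 size factors, 0.15 by library size only, 0.019 with quantile normalization, 0.20 with EC scaling, 0.080 without control mouse 2 and TDP-43iΔEC mouse 1, and -0.19 to 0.06 with each mouse left out.

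*Gpi1* was at -0.056 with the GC content and length trend removed. *Tpi1* was at 0.042 by library size only and 0.088 with EC scaling. *Slc2a1* was at 0.076 with quality weights, 0.14 by library size only, 0.27 with quantile normalization and 0.18 with EC scaling. Without control mouse 2 and TDP-43iΔEC mouse 1, *Pgm1* was at 0.48, *Fgfr1* at 0.84, *Ldha* at 0.40 and *Hif1a* at 0.49. Leaving out single mice gave lowest and highest log2 fold changes of -0.079 and 0.38 for *Ldha*, -0.017 and 0.25 for *Gpi1*, -1.04 and -0.05 for *Pgm1*, -1.12 and 0.066 for *Pgm2*, -0.033 and 5.36 for *Dlat*, -0.15 and 2.59 for *Pdp2*, -0.32 and 0.10 for *Slc2a1*, -0.11 and 0.31 for *Hif1a*, -0.32 and 5.31 for *P4ha1*, and -1.64 and 0.22 for *Fgfr1*. The difference in the *Pfkl* share ranged from -8.89 to 1.14 percentage points and that of *Pfkfb3* from -26.1 to 1.44.

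Same-numbered mice did not deviate together (correlations from -0.111 to -0.021), and with the replicate number as a block 22 genes passed the threshold and 0 of the 9. The limits are the 3 mice per group, the PCR-amplified counts without molecular identifiers, and gene-level counts that separate neither splice forms nor strands.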

Other observations

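The pentose phosphate pathway branches off glycolysis and makes NADPH and ribose. All 8 of its listed genes were tested and 0 passed the threshold in limma (0.137% of all genes did), with 0 unadjusted p values under 0.05 (9.27% of all genes) and a median log2 fold change of -0.18. The transaldolase gene *Taldo1* had the lowest p. It had 11006 ± 494 normalized counts in the control group and 8928 ± 1814 in the TDP-43iΔEC group (SD, n = 3 mice each), without overlap. In CPM the groups overlapped, as TDP-43iΔEC mouse 2 (292) lay above every control mouse (highest 289). The log2 fold change of *Taldo1* was -0.40 ± 0.19 (SE, limma adjusted p = 0.558), and leaving out single mice moved it between -0.50 and -0.19. The entry enzyme *G6pdx* and the epimerase gene *Rpe* had the largest fitted changes, -0.96 (standard error 0.77) and 0.55 (standard error 0.52). Without TDP-43iΔEC mouse 3, which had 93.7 normalized counts of *G6pdx* against 936 to 1914 in the other libraries, that of *G6pdx* was -0.18. Leaving out single mice moved that of *Rpe* between 0.33 and 0.79.

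Of 14 genes that are known to regulate glucose use, 9 were tested and 0 passed the threshold in limma, with 0 unadjusted p values under 0.05, against the same shares of all genes. *Myc*, a transcription factor that can activate glycolysis genes, had 499, 0 and 443 normalized counts in the control group and 672, 906 and 1299.9 in the TDP-43iΔEC group. The groups did not overlap, control mouse 2 had 0 counts, and the limma adjusted p was 0.564. *Fgfr1* had a log2 fold change of -1.05 ± 0.95 (SE).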
